A study of Mus musculus with 16 samples.

Results

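Genes of molecular chaperones and protein folding enzymes were followed in activated mouse CD4+ T cells with and without the transcription factor STAT3, across 4 cytokine conditions. The genes were chosen by symbol alone, as those that the array annotation names as heat shock proteins of the Hspa, Hspb, Hspd, Hspe, Hsph and Hsp90 families, J proteins of the Dnaja, Dnajb and Dnajc families, numbered Pdia genes, and subunits Cct2 to Cct8 of the cytosolic chaperonin. This gave 84 genes, each read through its probe set with the highest mean. Of these, 74 reached the level minimum of log2 6 on at least 2 of the 16 arrays and were measured, out of 13007 genes tested in all. The 74 were 12 of 14 HSP70 genes, 2 of 2 HSP90 genes, 9 of 11 chaperonin genes, 6 of 8 small heat shock protein genes, 5 of 5 protein disulfide isomerase genes and 4 of 4, 11 of 13 and 25 of 27 J protein genes of classes A, B and C.

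Naive CD4+ T cells, sorted as CD44- and CD62L+, were stimulated through CD3 and CD28 over 3 days. STAT3-deficient cells carried floxed STAT3 and CD4 Cre, which acts in T cells from their development onwards, and wild-type (WT) cells carried floxed STAT3 without Cre, so both genotypes shared the floxed allele. Each genotype was cultured with IL-6 (10 ug/ml) and TGFb (2.5 ug/ml) together, with IL-6, with TGFb, or in medium, and each of the 8 groups held 2 arrays. The labels do not say how many animals or cultures a replicate came from, and p-values cover no more than the spread between these arrays.

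As background, HSP70 proteins bind unfolded stretches of protein and release them in cycles of ATP hydrolysis, J proteins deliver clients and trigger that hydrolysis, and HSP110-type members such as Hspa4 and Hsph1 exchange the nucleotide. The chaperonins are closed chambers, made of Cct subunits in the cytosol and of Hspd1 (HSP60) with its lid Hspe1 (HSP10) in the mitochondrion, while Hspa5 (BiP), Hsp90b1 (GRP94) and the Pdia enzymes fold secreted and membrane proteins in the endoplasmic reticulum (ER). T cells that have been activated grow and divide quickly and begin to secrete cytokines, which raises the load on these systems. IL-6 signals through STAT3, and naive cells given IL-6 with TGFb become Th17 cells.

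All values are deposited RMA intensities taken to log2, and a difference of 1 is a 2-fold change. Stat3 read 8.4 to 10.46 on the 8 STAT3-deficient arrays, against 10.22 to 12.18 on the 8 WT arrays. The ranges overlapped through 1 array, the one labelled STAT3-deficient with TGFb, replicate 2, at 10.46 (8.46 in replicate 1). Without that array, more genes passed between the genotypes on average. More of the 74 also passed with TGFb, although Hspd1 and Pdia5 no longer did. This fit leaves 1 array in the group. The group is not part of the comparison of genotypes with IL-6, where it acts only through the shared estimate of the spread. Of 8 T cell markers, the 6 measured lay above log2 8 on all 16 arrays, while both CD8 markers, 7 of 7 myeloid and dendritic cell markers and the 6 measured of 7 B and plasma cell markers lay below it. Of the 2 NK cell markers measured, Ncr1 lay below log2 8 on all arrays, and Klrd1 ranged from 5 to 12.85. Xist read 11.91 to 13.21 on arrays of replicate 1 and 6.64 to 7.6 on those of replicate 2. The Actb 5' minus 3' difference, a sign of RNA length, was -0.5 to -0.11 in replicate 1 and -1.71 to -0.88 in replicate 2. The replicate number thus also goes with RNA quality and with Xist, from which alone a difference in sex was inferred. Within replicate 2 the Actb difference also went with genotype, at -1.71 to -1.22 in STAT3-deficient cells and -1 to -0.88 in WT cells. Within replicate 1 the genotypes overlapped, at -0.44 to -0.2 and -0.5 to -0.11. Counts from fits with the Actb difference added to the replicate block are given below. The part of RNA quality in the genotype differences was not itself tested. The 2 arrays of STAT3-deficient cells in TGFb correlated least across genes (r = 0.906). Those of WT cells in IL-6 followed (r = 0.939), and the other groups lay between 0.944 and 0.981. Because same-numbered arrays deviated together, values with the replicate number as a block stand beside those that it changes.

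The clearest pattern among the 74 genes lay between cultures with and without TGFb, averaged over both genotypes and over the presence of IL-6. In this comparison 8 genes fell and 0 rose (limma, Benjamini-Hochberg adjusted p under 0.05). They were the mitochondrial chaperone genes Hspd1, Hspa9 and Dnajc15, the HSP70-type genes Hspa1b and Hspa4, the chaperonin subunit Cct6a, the ribosome-associated J protein gene Dnajc2 and the disulfide isomerase gene Pdia5. They made up 10.8% of the 74, against 3.79% of all 13007 genes called lower and 9.25% called in either direction. The median change of the 74 was -0.09, against -0.01 over all genes, and 46 of 74 were lower, which is 62.2% against 51.5% of all genes. At an unadjusted p under 0.05 the shares were closer, at 28.4% of the 74 and 23.9% of all genes. With the replicate block 14 genes fell, or 18.9% against 7.22% of all genes, and 2 rose, or 2.7% against 9.12%. With the Actb 5' minus 3' difference added to the block, 7 fell and 1 rose. Of all 13007 genes 1431 passed in that fit, against 2125 with the block alone. None of the 74 had all 8 TGFb arrays on one side of all 8 arrays without TGFb, which held for 1.41% of all genes.

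Dnajc15 encodes a J protein of the inner mitochondrial membrane, known to restrain complex I of the respiratory chain. It read 9.99 and 10.7 in STAT3-deficient cells with IL-6 and TGFb, 10.17 and 9.67 in STAT3-deficient cells with TGFb, 8.92 and 9.75 in WT cells with IL-6 and TGFb, and 9.77 and 9.56 in WT cells with TGFb. Without TGFb it read 10.93 and 11.42 in STAT3-deficient cells with IL-6, 11.37 and 11.29 in STAT3-deficient cells in medium, 9.81 and 11.13 in WT cells with IL-6, and 11.21 and 11.35 in WT cells in medium. A single array, replicate 1 of WT cells with IL-6, brought the ranges to overlap, and 5 of 8 TGFb arrays lay below all 8 without. Dnajc15 averaged 9.82 ± 0.51 with TGFb and 11.06 ± 0.53 without (SD, n = 8 each), a log2 change of -1.25 (SE 0.21), or 2.37-fold lower (limma adjusted p = 0.00497). The TGFb array was lower in 8 of 8 pairs matched for genotype, IL-6 and replicate number. The change was -1.12 within replicate 1 and -1.38 within replicate 2.

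Hspa9 encodes mortalin, the HSP70 of the mitochondrial matrix and the motor of protein import. Its lowest, median and highest values were 10.62, 11.14 and 11.42 with TGFb, against 11.15, 11.84 and 12.01 without. The means were 11.11 ± 0.26 with TGFb and 11.74 ± 0.27 without (SD, n = 8 each), a change of -0.64 (SE 0.14, limma adjusted p = 0.0158), lower in 8 of 8 pairs. The groups overlapped only through the WT IL-6 array of replicate 2, at 11.15. Of its 5 probe sets, the 4 besides the one used gave changes of -0.63, -0.41, -0.39 and -0.06.

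Hspd1, the mitochondrial chaperonin HSP60, read 12.07, 12.37 and 12.95 (lowest, median, highest) with TGFb, against 11.92, 13.33 and 13.49 without. Here the lowest of all 16 values belonged to an array without TGFb, again WT IL-6 of replicate 2. The change was -0.66 (SE 0.19, limma adjusted p = 0.0491), lower in 7 of 8 pairs. Its partner Hspe1 read 12.21, 12.8 and 13.08 with TGFb, against 11.29, 13.12 and 13.39 without, and did not pass (change -0.18, SE 0.2, limma adjusted p = 0.647). Among the 7 measured of 8 mitochondrial chaperone genes, 3 fell, 5 with the replicate block, and 6 were lower, with a median change of -0.56 against -0.01 over all genes. The 2 added by the block were Dnaja3 (-0.38, limma adjusted p = 0.0348 with the block and 0.051 without), a J protein of the matrix, and Dnajc11 (-0.56, limma adjusted p = 0.018 with the block and 0.0685 without), a J protein associated with mitochondrial membranes in human cells. Another probe set of Dnajc11 gave -0.2, and dim ones, below log2 6 on all arrays, gave 0.19 and 0.16.

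**Figure D1:**
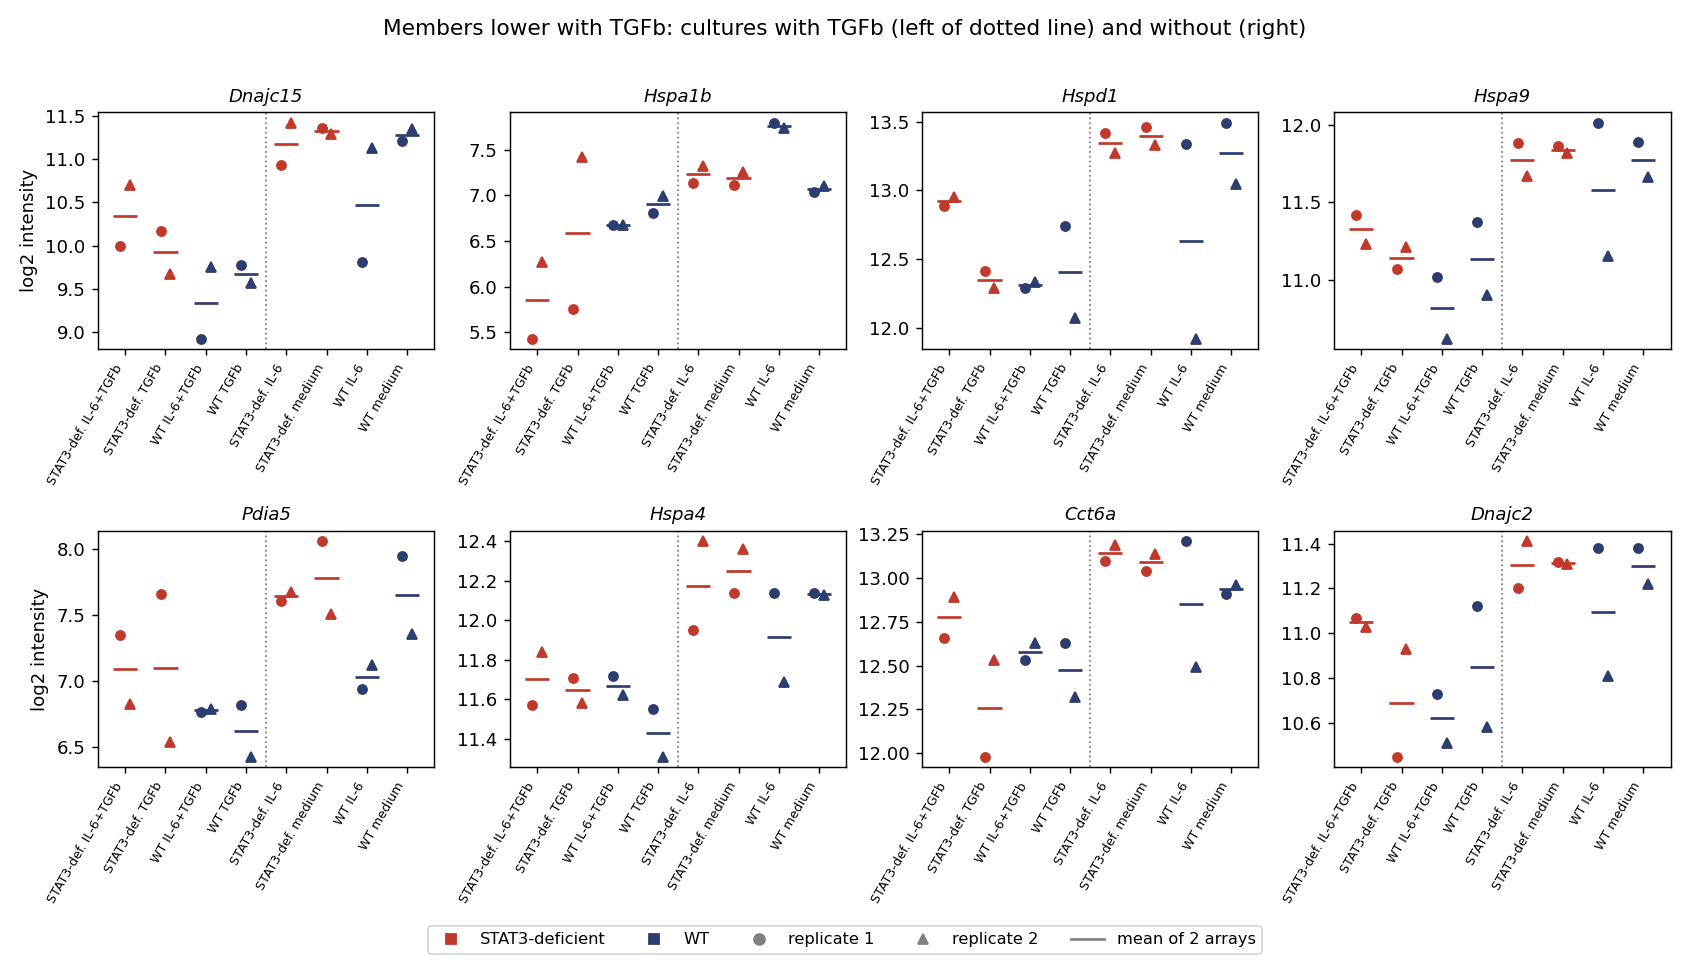
Log2 intensity on each of the 16 arrays (y axis, a scale per gene) of the 8 genes that fell with TGFb, with the 4 groups with TGFb left of the dotted line and the 4 without right of it. Red is STAT3-deficient and blue WT, circles are replicate 1 and triangles replicate 2, and bars are means of 2 arrays. Dnajc15 lies between 8.92 and 10.7 with TGFb and between 9.81 and 11.42 without.

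Among the cytosolic HSP70 genes, Hspa4, an HSP110-type exchange factor, read 11.31, 11.6 and 11.84 (lowest, median, highest) with TGFb, against 11.69, 12.14 and 12.4 without. It was 1.42-fold lower, with a log2 change of -0.51 (SE 0.11, limma adjusted p = 0.0153) and lower values in 8 of 8 pairs. The probe sets of Hspa4 disagreed: those with lower signal gave 0.24, 0.05 and -0.01, so the fall was seen by the brightest probe set only. Hspa1b, the stress-inducible HSP70, read 5.43, 6.67 and 7.42 with TGFb, against 7.04, 7.2 and 7.79 without. This was the largest change of the HSP70 family, at -0.81 (SE 0.21, limma adjusted p = 0.0361), and the TGFb array of STAT3-deficient replicate 2 was the exception, at 7.42. Hspa1b lies close to the level minimum and has the near-identical copy Hspa1a, whose signal on the array cannot be parted from its own with certainty. The log2 difference of Hspa1a was -0.17 (limma adjusted p = 0.403).

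Hspa14 and Dnajc2 encode the HSP70 and the J protein of the ribosome-associated complex, which meets chains as they leave the ribosome. Dnajc2 read 10.45, 10.83 and 11.12 with TGFb, against 10.81, 11.32 and 11.41 without, a change of -0.45 (SE 0.13, limma adjusted p = 0.0469) with lower values in 8 of 8 pairs. Hspa14 read 10.4, 10.73 and 11.2 with TGFb, against 10.98, 11.29 and 11.68 without, and its change of -0.47 passed only with the replicate block (limma adjusted p = 0.03, against 0.0536 without it). Hsph1, a heat-inducible HSP110, behaved likewise at -0.71 (limma adjusted p = 0.0463 with the block and 0.0744 without). Over the 12 HSP70 genes 3 fell, 5 with the block, 9 were lower and the median was -0.43. Hspa8, the constitutive HSP70 and the brightest of the panel with group means of 13.75 to 14.06, differed by -0.18 and did not pass (limma adjusted p = 0.521).

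All 9 chaperonin genes were lower with TGFb, with changes of -0.66 to -0.1 and a median of -0.37, and 2 of them fell, or 4 with the replicate block. Cct6a, a subunit of the cytosolic chaperonin that folds actin and tubulin, read 11.98, 12.58 and 12.89 with TGFb, against 12.49, 13.07 and 13.21 without. Its change was -0.49 (SE 0.13, limma adjusted p = 0.0376), and 2 of 8 TGFb arrays lay below all arrays without. Cct7 (-0.37) and Cct8 (-0.39) passed with the block (limma adjusted p = 0.0311 and 0.0415) and not without it (0.0682 and 0.065), with lower values in 8 of 8 pairs each. Cct3 (-0.42), Cct5 (-0.21), Cct2 (-0.16) and Cct4 (-0.1) did not pass in either fit. The subunits of 1 complex thus spanned changes of -0.49 to -0.1. Group means of these 7 Cct genes lay between 11.85, for Cct8 in WT cells with IL-6 and TGFb, and 13.37, for Cct2 in WT cells with IL-6.

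HSP90 genes were lower by similar amounts without passing. Hsp90aa1, the inducible cytosolic form, read 12.07, 12.57 and 12.79 with TGFb, against 12.6, 12.89 and 13.21 without, a change of -0.37 (limma adjusted p = 0.0728, and 0.0524 with the block). The ER form Hsp90b1 differed by -0.48 (limma adjusted p = 0.139). Both were lower in 8 of 8 pairs. Hsp90ab1 was not analysed here. Of the heat-inducible genes, a list of 10 that includes Hspa1b, Hsph1, Hspd1 and Hsp90aa1, 2 fell, 3 with the block, and the median was -0.27. Dnajb1, a J protein of that list, differed by 0 (SE 0.12).

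In the ER the picture was mixed. Pdia5, a disulfide isomerase, read 6.43, 6.81 and 7.66 with TGFb, against 6.94, 7.56 and 8.06 without, a change of -0.63 (SE 0.18, limma adjusted p = 0.0483) with lower values in 8 of 8 pairs. Hspa5, the central ER chaperone, read 12.35, 12.59 and 12.91 with TGFb, against 12.55, 13.02 and 13.62 without, and its change of -0.47 did not pass (limma adjusted p = 0.0828, and 0.0559 with the block). In the opposite direction, Dnajb9 (ERdj4), a J protein of the ER induced by unfolded protein, read 7.61, 8.45 and 9.03 with TGFb, against 7.14, 7.86 and 8.38 without. It was higher in 8 of 8 pairs by 0.54 and passed only with the block (limma adjusted p = 0.00366, against 0.108 without it). The differences of the other ER genes of the panel were -0.3 for Pdia6, -0.27 for Dnajb11, -0.24 for Dnajc3, -0.07 for Pdia4 and 0.12 for Pdia3, none of which passed. Over the 14 ER genes measured, 1 fell and the median was -0.11.

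Of the 11 class B J proteins 9 were not lower with TGFb, against 48.5% of all genes, and the median was 0.11; the difference between families was not tested. Only the block gave calls, for Dnajb9 and for Dnajb5, a cytosolic J protein, which read 7.91, 8.37 and 8.52 with TGFb, against 7.2, 7.86 and 8.31 without (change 0.44, limma adjusted p = 0.0284 with the block and 0.0684 without). The other probe sets of Dnajb5 gave smaller changes of 0.18 and 0.09. Class C J proteins, which share little beyond the J domain, had a median of -0.02 over 25 genes. The class A genes were all lower, with a median of -0.21 over 4. The 5 disulfide isomerases had a median of -0.07, and the 6 small heat shock proteins a median of -0.01 and 0 calls.

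**Figure D2:**
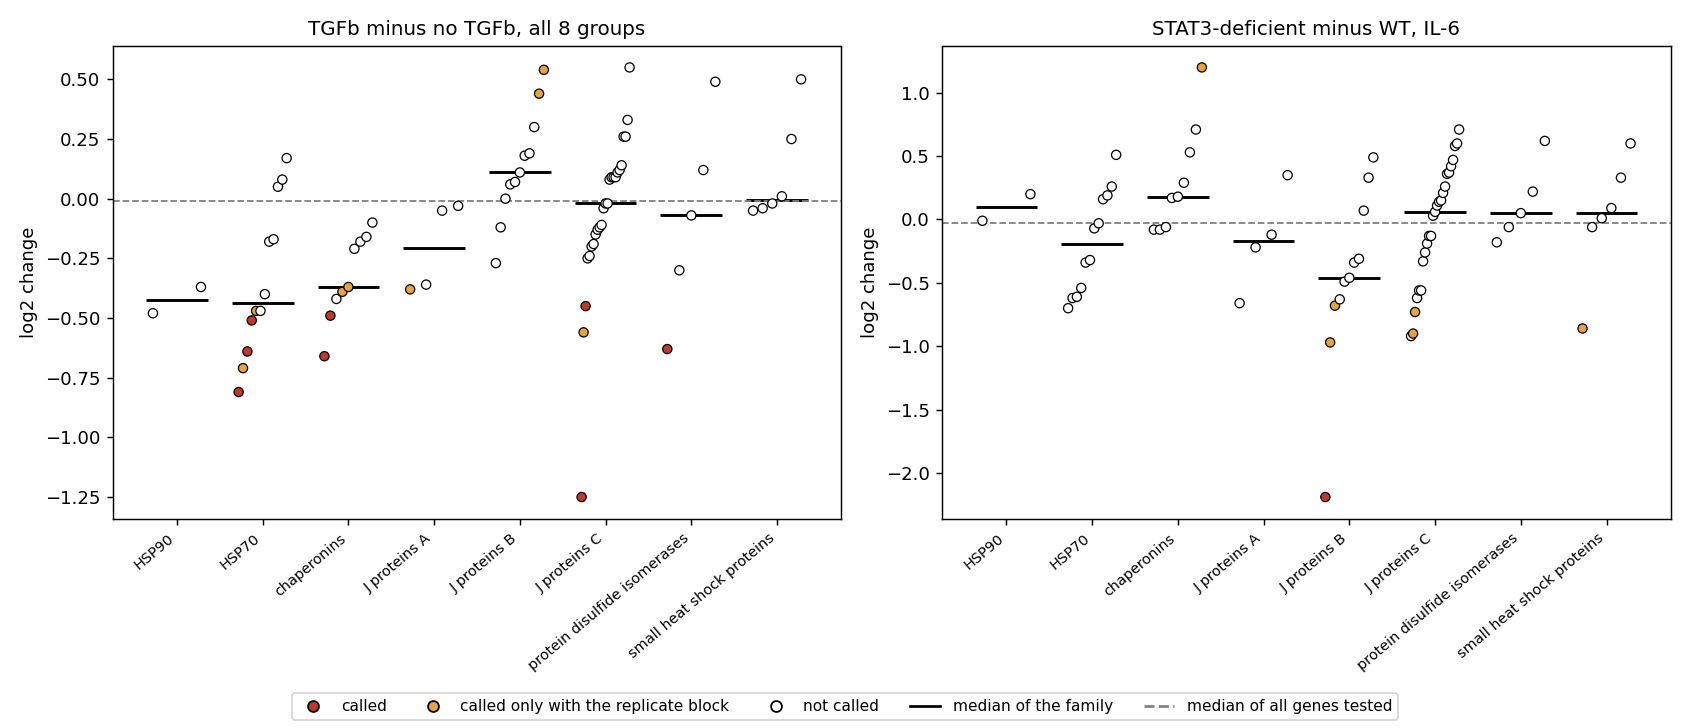
Log2 change of each of the 74 genes by family (points), for TGFb minus no TGFb (left) and STAT3-deficient minus WT with IL-6 (right), with the median of each family (bar) and of all genes tested (dashed line). Red points passed, orange points passed only with the replicate block and open points did not pass. In the left panel all 9 chaperonin genes lie below 0 and the class B J proteins have a median of 0.11.

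The TGFb difference was negative in each of the 4 settings for all 8 genes that fell. These genes were picked by the mean of the same 4 differences, so the shared sign is no separate support. For Dnajc15 it was -0.83 in STAT3-deficient cells with IL-6, -1.41 in STAT3-deficient cells without IL-6, -1.13 in WT cells with IL-6 and -1.62 in WT cells without IL-6. For Hspa9 the same order gave -0.45, -0.7, -0.76 and -0.65, and for Hspd1 -0.42, -1.05, -0.32 and -0.86. Those of Hspa1b were -1.38 and -1.1 with IL-6 in STAT3-deficient and WT cells, and -0.6 and -0.17 without IL-6. In the same order Hspa4 gave -0.47, -0.61, -0.25 and -0.71, Cct6a -0.37, -0.84, -0.27 and -0.46, Dnajc2 -0.25, -0.63, -0.47 and -0.46, and Pdia5 -0.56, -0.69, -0.25 and -1.03. Whether the settings differ from each other was not tested. Cell type markers moved little with TGFb: the mean of 6 T cell markers was 11.21 to 11.92 with TGFb and 11.34 to 12.17 without, and that of 6 B and plasma cell markers 5.61 to 6.2 with TGFb and 5.73 to 6.12 without. The mean of the 2 NK cell markers was 5.73 to 9.17 with TGFb and 5.23 to 6.51 without, through Klrd1, and its part in the result was not tested. Fewer cells and less RNA per cell cannot be told apart in these bulk samples. Dnajc15, Hspa9 and Hspa4 stayed called when any single array was left out, and the other 5 lost the call in 12 to 14 of 16 such fits. Across those fits the number of the 74 that passed ranged from 3, without replicate 1 of STAT3-deficient cells with IL-6 and TGFb, to 18, without replicate 2 of WT cells with IL-6.

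Promoter sequences are shown for genes of this group that carry a heat shock element or an ER stress element, since heat shock factor and the ER stress sensors are known to act on chaperone genes through these motifs. The sequences are from RefSeq (GRCm38.p6) and span 250 bases before to 50 after a gene's start; 60 of 74 genes had an entry. The heat shock element was searched on both strands as GAA, any 2 bases, TTC, any 2 bases and GAA. It was present in 0.603% of all 32851 promoters and in those of Hspd1, Hspe1, Hsph1 and Dnajb6. Hspd1 and Hspe1 are divergent neighbours on chromosome 1. One Hspd1 window shares 285 bases with that of Hspe1 and holds the same 2 overlapping matches. These matches, in capitals below, lie 89 bases before the start of Hspe1. Another Hspd1 window shares 4 bases with that of Hspe1 and held no match.
Hspe1, chr1:55088039-55088096, plus strand: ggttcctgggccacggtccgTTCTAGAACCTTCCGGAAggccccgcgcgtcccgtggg
Hsph1, chr5:149636268-149636320, minus strand: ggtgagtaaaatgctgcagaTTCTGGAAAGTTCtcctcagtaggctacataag
Dnajb6, chr5:29735832-29735884, plus strand: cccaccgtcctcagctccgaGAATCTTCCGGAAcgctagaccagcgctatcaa
With TGFb, the differences of the 2 genes that share matches were -0.66 for Hspd1 and -0.18 for Hspe1. Both were lower in 7 of 8 pairs, Hspe1 differed by -0.33, -0.63, 0.49 and -0.25 in the 4 settings in the order above, and whether the genes differ from each other was not tested. Dnajb6, a cytosolic J protein, did not pass in any comparison. A match is a description of the letters and does not show that a factor was bound.

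The ER stress element was searched as CCAAT and CCACG with any 9 bases between them, on both strands. It was present in 0.119% of promoters, among them those of Hspa5, Hsp90b1, Pdia6 and Dnajc3, which are all ER genes. Capitals mark the match.
Hspa5, chr2:34772005-34772063, plus strand: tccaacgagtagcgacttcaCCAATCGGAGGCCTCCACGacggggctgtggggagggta
Pdia6, chr12:17266471-17266529, plus strand: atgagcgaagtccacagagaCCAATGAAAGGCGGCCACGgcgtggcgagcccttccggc
Dnajc3, chr14:118937807-118937865, plus strand: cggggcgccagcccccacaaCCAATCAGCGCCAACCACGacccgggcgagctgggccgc
Hsp90b1, chr10:86705513-86705676, minus strand, 2 matches: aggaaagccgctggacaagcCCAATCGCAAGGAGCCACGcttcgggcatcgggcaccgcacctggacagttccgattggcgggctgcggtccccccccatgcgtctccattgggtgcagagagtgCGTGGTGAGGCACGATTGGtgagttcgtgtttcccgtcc
With TGFb these 4 genes differed by -0.47, -0.3, -0.24 and -0.48 in the order printed, and none passed. The STAT element TTCNNNGAA, searched on both strands, was present in 8.3% of promoters and in those of Cct5, Dnajc7, Dnajc13 and Dnajc27. None of those 4 passed in a comparison of genotypes. The amino acid response element TGATGNAAT was present in 0.965% of promoters and in none of the 60 genes with an entry.

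Between the genotypes, 0 of 74 genes passed when the 4 cytokine conditions were averaged (background 0.969% of all genes; 10.8% of the 74 and 15.9% of all genes at an unadjusted p under 0.05, lowest limma adjusted p = 0.152). The replicate block added 4 that fell, against 4.64% of all genes called lower: Dnajb4 (-0.68, limma adjusted p = 0.0126), Dnajb2 (-0.38, 0.0289), Dnajb9 (-0.43, 0.0259) and Hspb6 (-0.39, 0.0412). With the Actb 5' minus 3' difference added to the block, 0 of the 74 and 170 of all 13007 genes passed, against 697 of all genes with the block alone. The median change of the 74 was 0.01 and that of all genes -0.01. Most of the abundant chaperones differed little and did not pass: Hspa8 by 0.03 (SE 0.15), Hsp90aa1 by 0.03 (SE 0.12), Hspa5 by 0.09 (SE 0.16) and Hsp90b1 by -0.03 (SE 0.19). Cct genes differed by -0.05 to 0.28 and the Pdia genes of the panel by 0 to 0.15, and Hspd1 and Hspe1 by 0.35 and 0.39 (limma adjusted p = 0.377 and 0.36).

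With IL-6 as the only cytokine, STAT3-deficient and WT cells differed in 1 of the 74 genes, Dnajb4, which fell (background 3.29% of all genes called and 2.73% called lower). Dnajb4 (Hlj1) is a cytosolic J protein of the HSP70 system. It read 7.19 and 7.51 in STAT3-deficient cells with IL-6, against 9.06 and 10.01 in WT cells with IL-6. The groups did not overlap, as in 25 of the 74 genes and 47% of all genes. The difference was -2.19 (SE 0.45), or 4.56-fold lower (limma adjusted p = 0.0275, and 0.00133 with the block), with -1.87 within replicate 1 and -2.5 within replicate 2. A second probe set gave -2.3, while a dim one, below log2 6 on all arrays, gave 0.22. Across conditions the genotype difference in Dnajb4 was -0.59 with IL-6 and TGFb, 0.17 with TGFb and -0.09 in medium. The mean with IL-6 minus that in medium was -0.46 in STAT3-deficient cells and 1.63 in WT cells. The call was lost without replicate 1 or without replicate 2 of STAT3-deficient cells with IL-6 (limma adjusted p = 0.143 and 0.0801) and without replicate 2 of WT cells with IL-6 (0.0991), and also with array weights (0.114), where 23 of all 13007 genes passed, against 428 without weights.

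With the replicate block 6 genes fell in STAT3-deficient cells with IL-6, against 9.08% of all genes called lower, and 1 rose, against 2.38% called higher. Beside Dnajb4 the ones that fell were Dnajb9 (-0.97, limma adjusted p = 0.011 with the block and 0.18 without), Hspb6 (-0.86, 0.0191 and 0.32), Dnajb2 (-0.68, 0.0289 and 0.133), Dnajc18 (-0.9, 0.0356 and 0.204) and Dnajc5 (-0.73, 0.0357 and 0.0881). Dnajb9 read 7.14 and 7.55 in STAT3-deficient cells with IL-6, against 8.25 and 8.38 in WT cells with IL-6. Dnajb2, a J protein that carries clients to the proteasome, read 7.01 and 7.45 in STAT3-deficient cells, against 7.69 and 8.13 in WT cells. Dnajc5, the cysteine string protein of secretory vesicles, read 9.87 and 9.73 in STAT3-deficient cells, against 10.44 and 10.63 in WT cells. Hspb6 (HSP20), a small heat shock protein, read 6.21 and 7.17 in STAT3-deficient cells, against 7.25 and 7.85 in WT cells, and Dnajc18, a J protein of the ER membrane, read 7.3 and 7.91 in STAT3-deficient cells, against 7.99 and 9.02 in WT cells. With the Actb 5' minus 3' difference added to the block, 2 of the 74 and 410 of all 13007 genes passed, against 1490 of all genes with the block alone.

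Hspe1 was the gene that rose with the block (1.2, limma adjusted p = 0.0336, and 0.116 without it). It read 13.12 and 13.32 in STAT3-deficient cells with IL-6, against 11.29 and 12.75 in WT cells with IL-6. The difference rested on replicate 1 of the WT group, whose 11.29 was the lowest of all 16 arrays. It was 0.48 (limma adjusted p = 0.426) without that array and 1.93 (limma adjusted p = 0.00952) without the other WT array. Within replicate numbers it was 1.83 and 0.58. With IL-6 the median over the 11 class B J proteins was -0.46 (-0.68 within replicate 1 and -0.52 within replicate 2), against -0.03 over all genes, with 1 call without the block. The median over the 7 mitochondrial genes was 0.58, with 0 calls, and it was 0.04 within replicate 1 and 0.52 within replicate 2, against -0.15 and 0 over all genes.

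**Figure D3:**
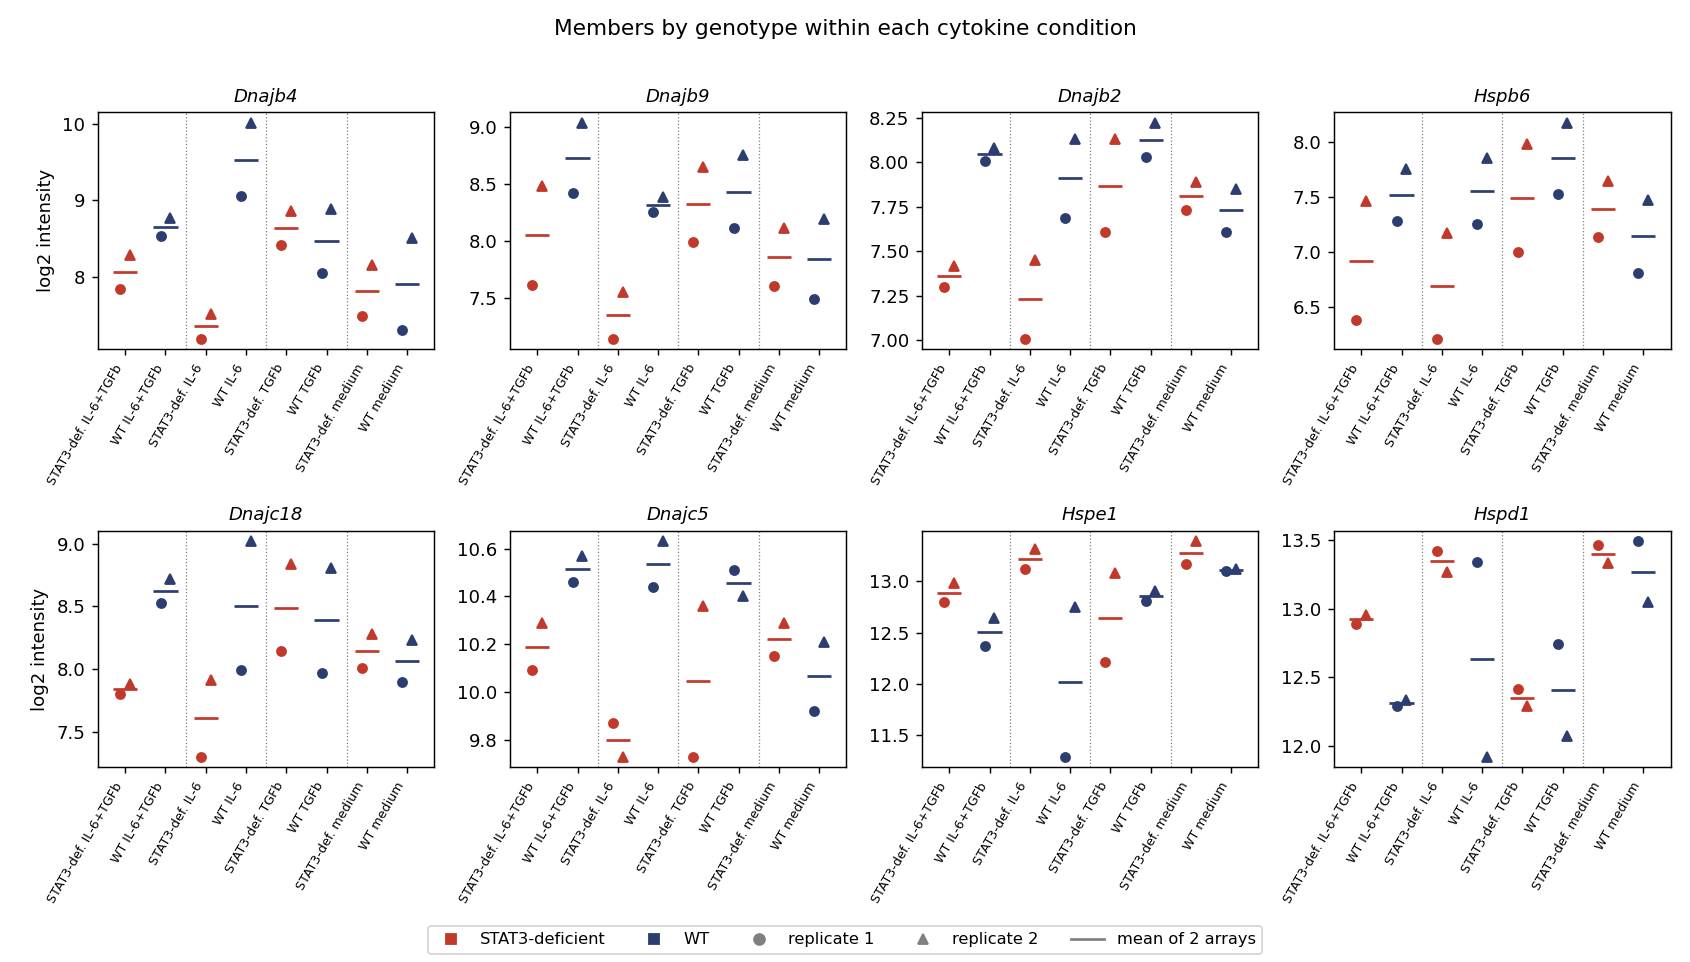
Log2 intensity on each array (y axis, a scale per gene) of the 7 genes that passed between the genotypes with IL-6 in either fit, and of Hspd1, with STAT3-deficient cells (red) left of WT cells (blue) in each cytokine condition. Circles are replicate 1, triangles replicate 2 and bars means of 2 arrays. Dnajb4 lies at 7.19 and 7.51 in STAT3-deficient cells with IL-6 and at 9.06 and 10.01 in WT cells with IL-6.

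With IL-6 and TGFb together 0 of 74 genes passed between the genotypes (background 1.19%; 5.41% of the 74 and 10.1% of all genes at an unadjusted p under 0.05, lowest limma adjusted p = 0.27). The largest of the differences that did not pass was in Dnaja4, a heat-inducible J protein, which read 7.06 and 7.65 in STAT3-deficient cells, against 8.44 and 8.48 in WT cells (-1.1, limma adjusted p = 0.27; named after its values were seen). Dnajc15 differed by 1.01 (limma adjusted p = 0.428). In the cultures without IL-6, averaged over TGFb and medium, 0 of 74 genes passed, as did 0 of all 13007 (background 0%), and 0 of 74 had an unadjusted p under 0.05, against 0.292% of all genes.

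The response to IL-6, averaged over the presence of TGFb, gave 0 of 74 calls in STAT3-deficient cells (background 0%; 5.41% of the 74 and 4.44% of all genes at an unadjusted p under 0.05, lowest limma adjusted p = 0.994) and 0 of 74 in WT cells (background 1.63%; 8.11% and 12.6% unadjusted, lowest limma adjusted p = 0.237). The block gave 1 call in WT cells, against 3.37% of all genes, Dnajb4, which rose by 0.91 (limma adjusted p = 0.0147). Its mean in WT cells differed by 1.63 between IL-6 and medium, and by 0.18 between IL-6 with TGFb and TGFb. The IL-6 response of STAT3-deficient cells minus that of WT cells was called in 0 of 74 genes (background 0.354%; lowest limma adjusted p = 0.227). With the block it was called in 1, Dnajb4 again, against 1.86% of all genes, at -1.43 (SE 0.45 without the block, limma adjusted p = 0.0207 with it). The IL-6 responses, their difference and the comparison of genotypes with IL-6 share arrays, so the values of Dnajb4 in them are not separate measurements.

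For the Th17 condition, WT cells with IL-6 and TGFb were set against WT cells in medium. Of 74 genes 1 fell, Dnajc15, against 3% of all genes called. It read 8.92 and 9.75 in WT cells with IL-6 and TGFb, against 11.21 and 11.35 in WT cells in medium, a change of -1.94 (SE 0.42), or 3.85-fold lower (limma adjusted p = 0.0316). The call was lost when any 1 of these 4 arrays was left out (limma adjusted p = 0.0654 to 0.303). These arrays also entered the TGFb comparison. With the block 3 genes passed, against 6.4% of all genes, with changes of -0.96 for Hspa9 (limma adjusted p = 0.0282 with the block and 0.0998 without) and 0.88 for Dnajb9 (0.0189 and 0.288). In STAT3-deficient cells the same comparison gave 0 of 74 calls (background 0.138%; 8.11% of the 74 and 5.98% of all genes at an unadjusted p under 0.05, lowest limma adjusted p = 0.537). There 54 of 74 changes were negative, 73% against 57.3% of all genes, with a median of -0.17 against -0.05.

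The 6 genes with the largest SD over the 16 arrays were Dnajc15 (0.82), Hspb11 (0.79), Dnajb4 (0.75), Hspa1b (0.65), Hspa2 (0.61) and Dnajc10 (0.59). Hspb11, named as a heat shock protein but known as a part of the intraflagellar transport complex, read 8.83, 9.31 and 10.59 with TGFb, against 7.21, 9.13 and 9.83 without, and its lowest value, 7.21, came from replicate 1 of WT cells with IL-6. Dnajc10, an ER disulfide reductase with a J domain, had its highest values, 11.68 and 11.96, on the replicate 2 arrays of STAT3-deficient and of WT cells with TGFb. Neither passed in any comparison, nor did Hspa2, a testis-enriched HSP70 with group means of 5.8 to 6.87. Group means of remaining panel genes were: Dnaja1 11.22 to 11.94, Dnajb1 10.57 to 11.15, Dnajb11 10.37 to 10.9 and Dnajc3 9.07 to 9.7. Those of Hspa5 were 12.46 to 13.24, of Hsp90b1 11.18 to 11.78 and of Hspb1 7.24 to 7.83. Those of Pdia3 were 11.53 to 12.1, of Pdia4 9.65 to 10.08 and of Pdia6 11.13 to 11.63. Just inside the level minimum were Hspa1a and Hspb2, with second-highest arrays at 6.07 and 6.21, and Hspb7, within 0.25 of it, and just outside was Cct6b at 5.91. The genes below it were Cct6b, Cct8l1, Dnajb3, Dnajb7, Dnajc5g, Dnajc6, Hspa12b, Hspa1l, Hspb3 and Hspb9.

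**Figure D4:**
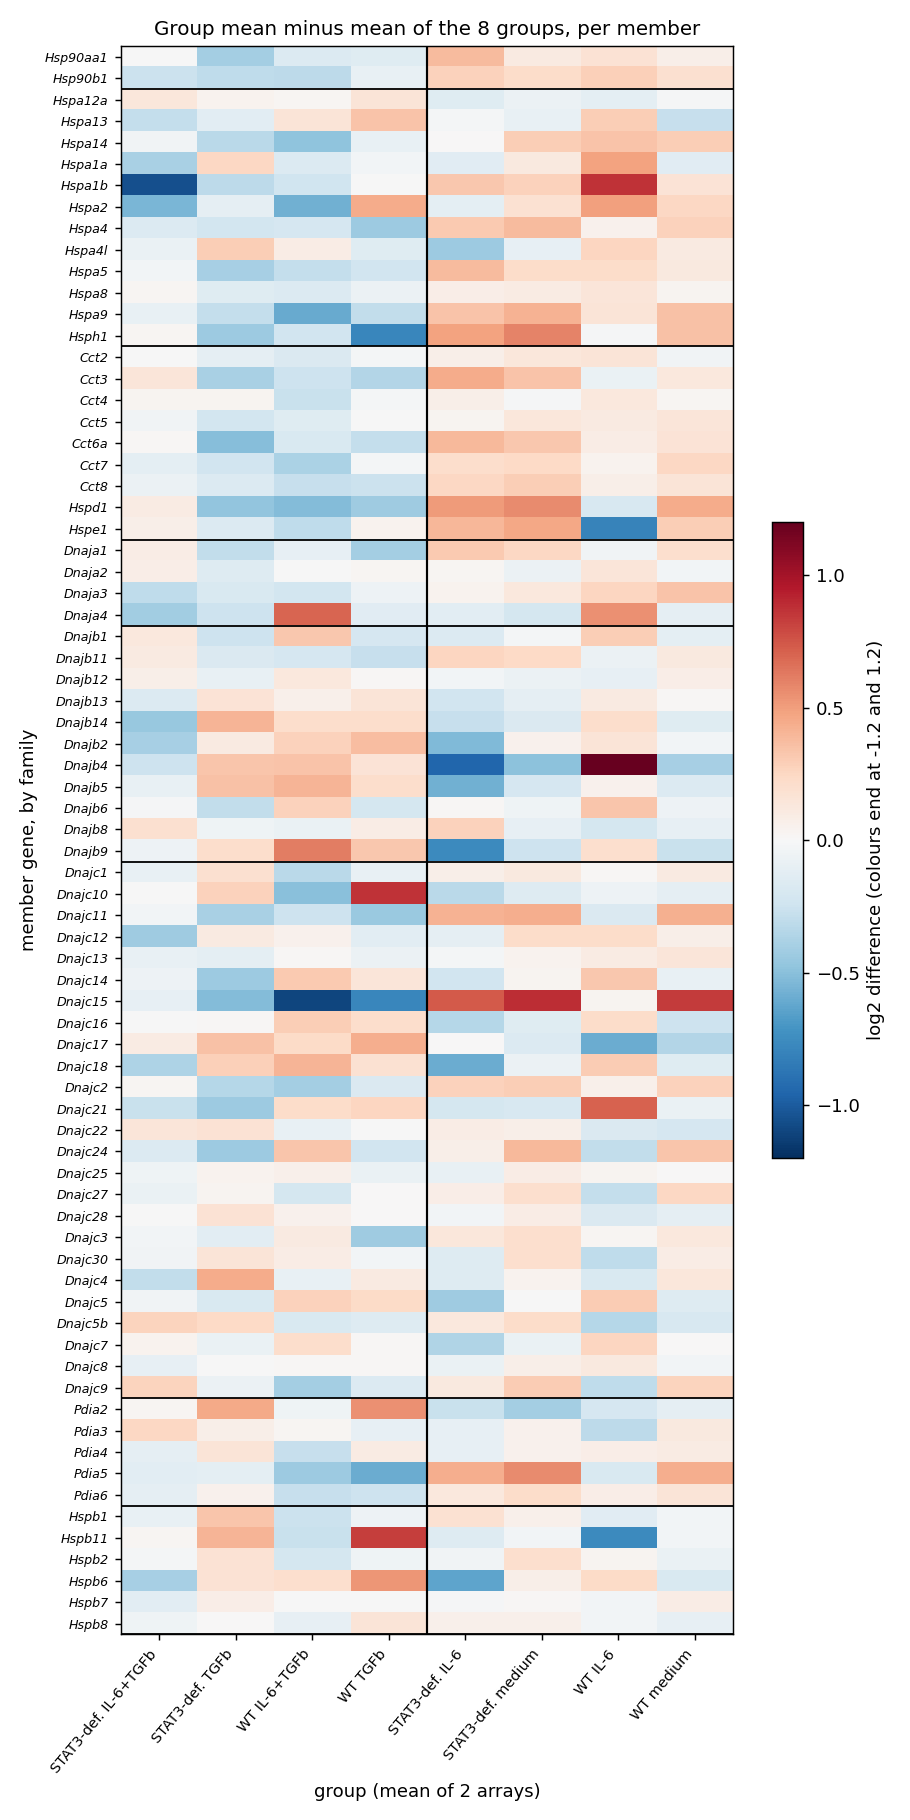
Group means of the 74 genes (rows, by family) as log2 differences from each gene's mean over the 8 groups, with the 4 groups with TGFb left of the vertical line and the 4 without right of it. Colours end at -1.2 and 1.2. Dnajc15 is low in the groups with TGFb, and Dnajb4 is highest in WT cells with IL-6.

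Genes outside the 74 that work with them were read from 4 lists. Between the genotypes with IL-6, the disulfide isomerase P4hb fell in STAT3-deficient cells (-1.1, SE 0.22, limma adjusted p = 0.0265) and the prefoldin subunit Pfdn2, which hands actin and tubulin to the chaperonin, rose (1.54, SE 0.29, limma adjusted p = 0.0224). Each was the only call among the 16 ER foldase and lectin genes and the 10 chaperonin partners. The 22 unfolded protein response genes and the 24 measured of 26 HSP70 and HSP90 co-chaperones had 0 calls there, against 3.29% of all genes called. The replicate block added the prefoldin subunits Pfdn4 (1.19, limma adjusted p = 0.0164 with the block and 0.116 without) and Pfdn6 (1.04, 0.031 and 0.0974), both higher, and Ppp1r15a (-1.1, 0.0167 and 0.0586), a stress-induced phosphatase subunit, and the co-chaperone Bag2 (-0.99, 0.0171 and 0.201), both lower. Of all genes, 2.38% were called higher and 9.08% lower there with the block. List medians with IL-6 were -0.13, 0.4, -0.32 and -0.01 for the 4 lists in the order named. With TGFb, the co-chaperone Fkbp5 fell (-0.67, limma adjusted p = 0.0209). The ER stress kinase gene Eif2ak3 (0.64, 0.0457) and Edem2 (0.63, 0.0253), which sorts misfolded glycoproteins for degradation, rose. These were 1 of the 24 co-chaperones and 2 of the 22 unfolded protein response genes, against 9.25% of all genes called. The block added the co-chaperone Fkbp4 (-0.59, limma adjusted p = 0.0249 with the block and 0.0919 without), against 7.22% of all genes called lower. List medians with TGFb were -0.17 for the co-chaperones and -0.04 for the unfolded protein response genes.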

How the data were processed

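Gene expression was measured on 16 arrays, 1 per sample. A MirVana kit served to isolate RNA and MessageAmpII-Biotin to label it, per the labels' protocols. RMA was the authors' summary of the probes, per the submitters' processing notes, and neither its version nor the step that made values linear is given in the sources used here. Each deposited intensity was linear and a whole number (100% of values, from 6 to 37243), and array medians were 66 to 73. Precision is limited by the number of arrays.

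Of 45101 probe sets, 64 were controls, 34945 had 1 gene symbol in the platform annotation, 932 several and 9160 none. This named 18193 genes, each taken through its probe set with the highest mean. The 203 probe sets of chaperone genes named 84 genes; the 3 probe sets of Dnajc19 carry several symbols and were left out. Log2 was taken with no pseudocount, and 13007 genes at log2 6 or more on at least 2 arrays were tested. All 16 arrays were fitted in limma 3.58.1 (R 4.3.3) with a mean per group (8 residual and 3.27 prior degrees of freedom), two-sided, with Benjamini-Hochberg adjustment over the 13007 genes within each of 10 comparisons. The fit was tested on simulated data in which arrays varied independently. Such data do not cover the shared deviations of same-numbered arrays given below. Figures were drawn with matplotlib 3.10.9.

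Groups and replicate numbers came from the labels. Deviations of same-numbered arrays from their group means correlated across genes at 0.11 to 0.86 (median 0.33) in all 28 pairs of groups, so the numbers pair the samples; what they stand for is not stated. Named were genes that passed in any comparison, a panel, the 6 most variable genes, those within 0.25 of the level minimum, and up to 4 passing genes of each list outside the 74. The 74 genes, the lists, the panel, the families and the tests were chosen with earlier results of these data known. Alternatives were the replicate block, quantile normalization, no level minimum, array weights, the most variable probe set and leaving out each array, with 2 more added after seeing the data.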

Additional observations from a re-analysis of the deposited data

Results flagged for a closer look

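Dnajb4 differed between the genotypes in its response to IL-6 only in the fit with the replicate block. With the replicate block, the IL-6 response of STAT3-deficient cells minus that of WT cells was -1.43 on the log2 scale (limma adjusted p = 0.0207), with -1.55 within replicate 1 and -1.31 within replicate 2. Without the block the same difference had a limma adjusted p of 0.227. The difference itself was tested, as an interaction of genotype and IL-6 over all 16 arrays. It averages cultures with and without TGFb. In WT cells the IL-6 difference was 1.63 without TGFb and 0.18 with it. In STAT3-deficient cells it was -0.46 without TGFb and -0.58 with it. Whether the response depends on TGFb was not tested. When each array was left out in turn, without the block, the difference lay between -1.73 and -1.13 and did not pass.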

How the results depend on the processing

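Of the 74 genes, with the replicate block 4 passed between the genotypes on average (0 without it), 7 between the genotypes with IL-6 (1), 1 for IL-6 in WT cells (0), 1 for the genotype by IL-6 interaction (0), 16 with TGFb (8) and 3 in the Th17 condition in WT cells (1), and it changed no other call. Array weights gave 0 with IL-6 between the genotypes (23 of all genes, against 428 without weights) and 2 in the Th17 condition (979, against 390). With TGFb the count was 5 of 84 genes with no level minimum and 3 of 70 with the most variable probe set per gene. In the latter, Hspa4 turned to 0.24 (limma adjusted p = 0.465) because another of its probe sets was read. Leaving out replicate 1 of STAT3-deficient cells with TGFb and replicate 1 of WT cells with IL-6 together, chosen after seeing the data, gave 2 between the genotypes with IL-6, 5 with TGFb and 2 in the Th17 condition. The block with the Actb 5' minus 3' difference, also chosen after seeing the data, gave 2 between the genotypes with IL-6, 1 for IL-6 in WT cells, 1 for the interaction and 2 in the Th17 condition. With TGFb it gave 8, against 16 with the block alone. Leaving out 1 array at a time gave 0 to 3 between the genotypes on average (3 without replicate 2 of STAT3-deficient cells with TGFb), 0 to 2 with IL-6, 0 to 1 for IL-6 in WT cells, 3 to 18 with TGFb, 0 to 2 in the Th17 condition, and 0 to 0 in the other comparisons. The causes of these shifts were not tested. Dnajc15 with TGFb kept its call in 23 of 23 alternatives (limma adjusted p = 0.00174 to 0.0162), Hspa9 and Hspa4 in 22 each, Hspa1b in 11, Cct6a and Pdia5 in 7 each, Hspd1 in 6 and Dnajc2 in 4. Dnajb4 between the genotypes with IL-6 kept its call in 19. Genes near log2 6, such as Hspa1a, Hspb2 and Hspb7, are limited by their signal over background.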
